A study of Mus musculus with 36 samples.

Results

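The lung response of male mice to the dispersant Corexit 9527 was measured against saline by RNA-seq of 6 left lungs, 3 of each group, out of the 36 lungs of the series. The libraries were chosen by sample label alone: mice 10, 11 and 12 carry the treatment label 9527, mice 1, 2 and 3 the label saline, and all gene rows of the male count table were used. Corexit 9527 is an oil dispersant, a mixture of solvents and surfactants that was sprayed on the Deepwater Horizon spill. Wild-type C57BL/6 male mice, 8 weeks old at the start, were given 50 µL at each of 3 treatments, on day 0, on day 7 and again on day 13, and the lungs were taken on day 14. The Corexit 9527 mice received a preparation of 1 part Corexit to 40 parts Hank's balanced salt solution, diluted 10-fold (0.1 of the accommodated fraction), and the saline mice received saline. The study's methods give oropharyngeal aspiration as the route, whereas the labels speak of intratracheal delivery. The other male groups received Corexit 9500 or MC252 oil at the same dilution, or oil with either dispersant (9500+oil, 9527+oil), and female mice received the same treatments.

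An irritant that reaches the airways injures the epithelium, and the surviving cells respond by dividing, by switching to squamous and mucus-secreting programs and by calling in macrophages. Goblet cells and their gel-forming mucin Muc5ac are rare in the airways of healthy mice, and dividing cells are few in adult lung. Macrophages that clear debris load their lysosomes and produce matrix-degrading and matrix-bound proteins, while fibroblasts lay down fibronectin and collagen. Whole lung was sequenced, so fewer cells of a type and less RNA per cell cannot be told apart in any of the values below.

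The libraries were of even depth, with total counts of 19288220 to 22296844, and mitochondrial genes took 5.27% to 6.93% of the counts. Levels are CPM, a gene's counts for each 1000000 of its library, with library sizes scaled by TMM, a method that sets libraries level over the bulk of their genes. The surfactant gene Sftpc of alveolar type 2 cells stood at 10994 to 15249 CPM over the 6 lungs, Ager of alveolar type 1 cells at 1679 to 2206 CPM, Scgb1a1 of club cells at 12384 to 21304 CPM and Pecam1 of endothelium at 788 to 1162 CPM, so the defining lung markers were present. On the first principal component of log2 CPM (32.6% of the variance), mouse 11 scored 52.1 and saline mouse 2 scored -31.6, with the other 4 lungs between -19.7 and 16.9. On the second (24%), Corexit 9527 mouse 12 scored 46 and saline mouse 3 scored -26.8, with the others between -15.7 and 8.6. Mouse 12 moved many counts, which are given without it below.

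Of 14919 genes tested, 16 rose and 1 fell in the Corexit 9527 mice at an edgeR adjusted p under 0.05, which is 0.107% and 0.0067% of the genes tested. At an adjusted p under 0.10, used below as a second threshold, 119 genes (0.798%) were higher and 20 (0.134%) lower. Unadjusted p was under 0.05 for 1187 higher (7.96%) and 863 lower genes (5.78%), and the groups did not overlap for 10.7% of genes with all treated lungs higher and 9.44% with all lower. Counts of members of gene lists below are to be read beside these shares of all genes. On the log2 scale the 119 genes ran from 0.44 to 5.12 (median 1.16) and the 20 genes from -8.03 to -0.44 (median -0.64). Among the treated lungs, mouse 11 held the highest value for 86 of the 119 genes and mouse 12 the lowest for 67. The counts at 0.05 turned on single lungs: without Corexit 9527 mouse 12 they were 173 higher and 38 lower, without mouse 10 they were 7 and 0, and without mouse 11 they were 8 and 1. Without saline mouse 1 they were 2 and 1, and without saline mouse 2 or mouse 3 no gene passed by edgeR, with 960 and 1003 higher and 490 and 681 lower genes at an unadjusted p under 0.05. DESeq2 on all 6 libraries called 411 higher and 161 lower, and the 16 genes that rose by edgeR were all among the 411.

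**Figure D1:**
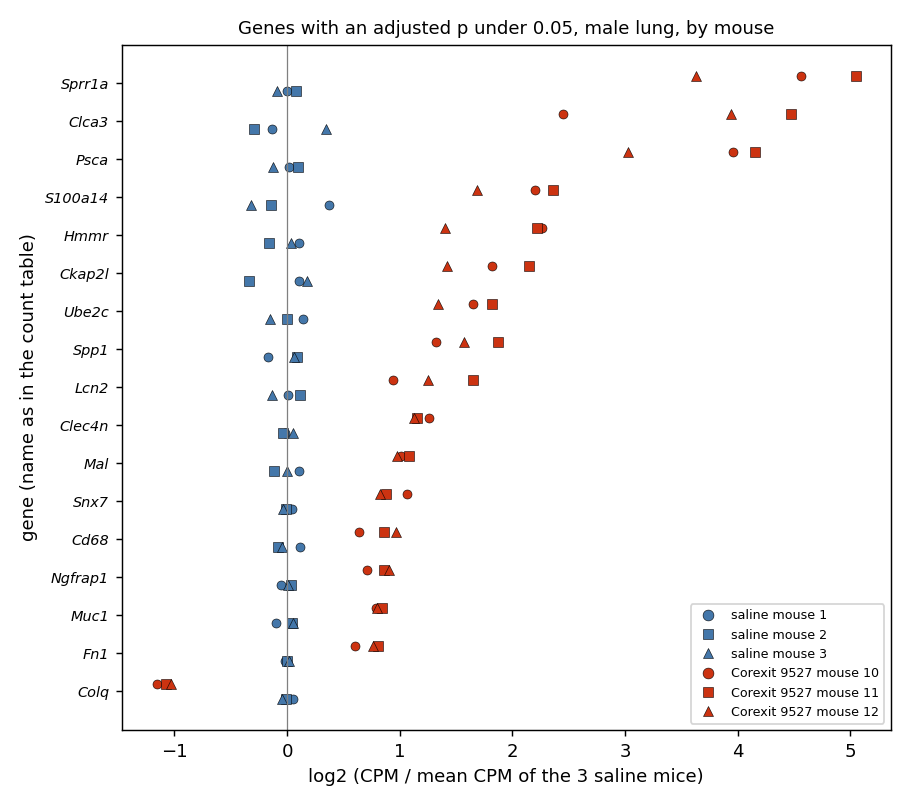
Each row is a gene with an edgeR adjusted p under 0.05, and each point is 1 lung, placed at the log2 ratio of its CPM to the mean CPM of the 3 saline lungs (blue, saline mice 1 to 3; red, Corexit 9527 mice 10 to 12). The red points lie to the right of the blue ones for 16 genes and to the left for Colq, and the spread between treated lungs is widest for Clca3, from 87.1 to 354 CPM.

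Genes of injured and squamous epithelium included 2 of the 3 called genes with the highest fold changes, Sprr1a and Psca. Sprr1a encodes a small proline-rich protein that is cross-linked into the envelope of squamous cells, and it lies on chromosome 3, 92483952 to 92485895 (GRCm38), among other Sprr genes. Sprr1a stood at 1.40, 1.48 and 1.32 CPM in the saline mice and 33.1, 46.3 and 17.4 CPM in the Corexit 9527 mice. Every treated lung was over 10 times every saline lung, and the rise was 22.96-fold (log2 fold change 4.52, SE 0.37, edgeR adjusted p = 0.0147). Leaving out any 1 lung kept its log2 fold change between 4.17 and 4.83, but without any 1 saline mouse it did not pass 0.05, with an edgeR adjusted p of up to 0.138. Sequence before the start of Sprr1a is shown because its squamous program is a textbook target of the factor AP-1. In the RefSeq promoter table (GRCm38.p6), the 250 bases before its start at chr3:92485882-92486131 on the minus strand hold the AP-1 word TGAGTCA, searched on both strands after the sequence had been read, at 146 and 116 bases before the start. In the line that follows, capitals mark that word and a CCAAT word.
Sprr1a: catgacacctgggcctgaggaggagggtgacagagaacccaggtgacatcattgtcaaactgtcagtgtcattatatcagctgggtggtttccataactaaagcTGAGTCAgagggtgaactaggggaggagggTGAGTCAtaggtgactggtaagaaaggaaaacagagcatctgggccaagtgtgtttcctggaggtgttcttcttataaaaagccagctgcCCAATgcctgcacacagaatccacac
The word TGAGTCA or its reverse complement occurred in the same window of 5.16% of the 27025 genes of that table and of 4.24% of the tested genes it holds. These matches are letters in a window and were not tested as sites.

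Psca, a surface protein anchored to the membrane of epithelial cells, was close to absent in the saline lungs. It stood at 0.201, 0.212 and 0.182 CPM in the saline mice and 3.08, 3.54 and 1.62 CPM in the Corexit 9527 mice (log2 fold change 3.76, SE 0.48, edgeR adjusted p = 0.0446), and its levels remained low in all 6. S100a14, a calcium-binding protein of epithelia, rose 4.32-fold, with 2.86, 2.01 and 1.77 CPM against 10.2, 11.4 and 7.14 CPM (log2 fold change 2.11, SE 0.28, edgeR adjusted p = 0.0468). Lcn2, the siderophore-binding lipocalin that injured epithelium and neutrophils release, had 140.0, 151 and 127 CPM in the saline mice and 268, 436 and 332 CPM in the Corexit 9527 mice. Its rise was 2.48-fold (log2 fold change 1.31, SE 0.17, edgeR adjusted p = 0.0468), with mouse 11 the highest. Mal, a proteolipid that sorts proteins to the apical membrane, was 32.9, 28.1 and 30.4 CPM against 61.3, 64.5 and 59.9 CPM, so that the treated lungs differed from each other less than from any saline lung (log2 fold change 1.02, SE 0.10, edgeR adjusted p = 0.0147). Of the 19 tested members of the list for epithelial injury and squamous genes, 3 rose (Sprr1a, Psca and Lcn2), 5 were called at 0.10, all higher, and 12 had an unadjusted p under 0.05, all higher, against 7.96% of all genes. This list and those below were chosen with earlier results of these data known, so their counts are descriptions and not independent evidence. Without mouse 12, 8 of the 19 passed 0.05, without mouse 10 or mouse 11 2 and 1 did, and without any 1 saline mouse 0 did. The median log2 fold change of the list was 0.68 where that of all tested genes was -0.009. Krt18, a keratin of simple epithelium, was called at 0.10 with a log2 fold change of 0.90 ± 0.17 (SE), and Krt19 had 0.85 ± 0.19 (SE) with an edgeR adjusted p of 0.126.

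Mucus genes were higher in the same lungs. The gene listed as Clca3, the older mouse name of the goblet-cell protein gob-5 that is now called Clca1, lies on chromosome 3, 145003817 to 145032776. Clca3 stood at 14.5, 13.02 and 20.2 CPM in the saline mice and 87.1, 354 and 244 CPM in the Corexit 9527 mice. The saline lungs lay close together, and the treated lungs were far apart, with mouse 10 the lowest and mouse 11 the highest. It rose 14.3-fold (log2 fold change 3.84, SE 0.47, edgeR adjusted p = 0.0374). Muc1, the transmembrane mucin on the surface of airway and alveolar type 2 cells, rose with much less spread, with 454, 503 and 505 CPM against 842, 877 and 846 CPM (1.75-fold, log2 fold change 0.81, SE 0.09, edgeR adjusted p = 0.033). Muc5ac, the gel-forming mucin of goblet cells, was called at 0.10 with 5.72, 6.30 and 6.69 CPM against 17.8, 62.5 and 34.5 CPM (log2 fold change 2.62, SE 0.40, edgeR adjusted p = 0.0558). Muc5b, another gel-forming mucin, already had 231, 284 and 291 CPM in the saline mice. In the Corexit 9527 mice it had 307, 619 and 481 CPM (log2 fold change 0.80, SE 0.23, edgeR adjusted p = 0.178). Fcgbp, a protein bound into the mucus gel, was also called at 0.10 with a log2 fold change of 2.11 ± 0.36 (SE). Chil4, a chitinase-like protein secreted by airway epithelium, had 0.0502, 0.529 and 0.637 CPM against 2.37, 14.4 and 7.56 CPM and an edgeR adjusted p of 0.0763. Of the 18 tested members of the goblet and mucus list, 2 rose (Muc1 and Clca3), 7 were called at 0.10 and 10 had an unadjusted p under 0.05, all of them higher, beside 1 lower member at that unadjusted threshold, Bpifa1, whose groups overlapped. Without mouse 12, 5 passed 0.05, without mouse 10 or mouse 11 3 and 0 did, and without any 1 saline mouse 0 did. Median log2 fold change was 0.68. In the 3 treated lungs, mouse 11 had the highest levels of Clca3, Muc5ac, Fcgbp and Chil4 and mouse 10 the lowest.

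Genes of cell division were higher in the treated lungs. Of the 119 genes called higher at 0.10, 36 were on the lists for replication, mitosis, S phase checkpoint or recombination. Over the 8 lists from replication licensing to histones, 225 members were tested, and the middle one had a log2 fold change of 0.85. At 0.10, 34 of the 225 were called higher and 0 lower, against 0.798% and 0.134% of all genes. At an unadjusted p under 0.05, 148 were higher and 3 lower, against 7.96% and 5.78% of all genes. In the order of the cycle, the first step is to load the MCM helicase on origins. All 27 tested licensing and MCM genes had a log2 fold change above 0, of which 19 had an unadjusted p under 0.05 and 0 an adjusted p under 0.10. Mcm3, a helicase subunit, had 28.7, 26.9 and 26.5 CPM in the saline mice and 45.1, 64.3 and 37.9 CPM in the Corexit 9527 mice (log2 fold change 0.84, SE 0.18, edgeR adjusted p = 0.113). Ticrr, which helps origins to fire, had 0.702, 0.741 and 1.59 CPM against 4.85, 7.27 and 2.40 CPM. Without mouse 12, 7 of these 27 members passed an adjusted p of 0.05.

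Synthesis of DNA and of its precursors comes next. Among the polymerase and fork genes, 21 of 37 tested members had an unadjusted p under 0.05, all higher, and 3 were called at 0.10. Without mouse 12, 12 of the 37 passed 0.05. The 3 were 2810417H13Rik (now Pclaf), the PCNA-associated factor, Uhrf1, which recruits the maintenance DNA methyltransferase, and Top2a, the topoisomerase that untangles replicated DNA. Uhrf1 stood at 9.88, 7.04 and 7.83 CPM in the saline mice and 34.5, 49.5 and 19.4 CPM in the Corexit 9527 mice (log2 fold change 2.06, SE 0.31, edgeR adjusted p = 0.0558). Pclaf had 3.51, 3.76 and 3.37 CPM against 16.8, 24.8 and 9.33 CPM, a log2 fold change of 2.26 ± 0.33 (SE). In both genes mouse 11 was the highest and mouse 12 the lowest of the treated lungs, yet above all 3 saline lungs. Of the 19 nucleotide supply genes tested, 12 had an unadjusted p under 0.05, all higher, against 6 without mouse 11, and 2 passed 0.05 after adjustment without mouse 12. Rrm2, the small subunit of ribonucleotide reductase, was the only one called at 0.10, with 6.27, 4.92 and 6.10 CPM against 17.6, 29.9 and 11.7 CPM. For replication-dependent histones, only 9 of the 25 members in the count table had enough counts to be tested. The list can therefore not show whether histone genes rose with the others. The study names an mRNA kit for its libraries, and the part that this has in the histone counts was not tested. The median of the 9 was -0.28 on the log2 scale, and 0.0037 without mouse 11. At an unadjusted p under 0.05, 2 were higher and 2 lower, and the variant H2afz was called higher at 0.10 (0.50 ± 0.08 (SE)).

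The 3 lists of mitotic genes had the highest medians of the 8, and the only members of the 8 lists that rose were on 1 of them. Ube2c, the ubiquitin-conjugating enzyme of the anaphase-promoting complex, rose 3.07-fold, with 4.97, 4.50 and 4.05 CPM in the saline mice and 14.1, 15.9 and 11.4 CPM in the Corexit 9527 mice (log2 fold change 1.62, SE 0.19, edgeR adjusted p = 0.033). Ckap2l, a protein of spindle poles, rose 3.54-fold, with 5.12, 3.76 and 5.37 CPM against 16.7, 21.03 and 12.7 CPM (log2 fold change 1.82, SE 0.23, edgeR adjusted p = 0.0425). Hmmr, a spindle-associated hyaluronan receptor, rose 4.03-fold, with 2.86, 2.38 and 2.73 CPM against 12.7, 12.4 and 7.04 CPM (log2 fold change 2.01, SE 0.27, edgeR adjusted p = 0.0468). In each of the 3 genes the treated lungs lay above all saline lungs, with mouse 12 the lowest of them. On the list of mitotic kinases, anaphase-promoting complex and cytokinesis genes, 39 of 47 tested members had an unadjusted p under 0.05, all higher, 17 were called at 0.10 and the 3 above rose. The median log2 fold change was 1.41, and 1.67 without mouse 12, when 30 of the 47 passed 0.05. Kinesins of the spindle had 12 of 14 members at an unadjusted p under 0.05 and 4 called at 0.10, among them Kif20a of the central spindle (1.83 ± 0.32 (SE)) and Kif18b of microtubule ends (2.11 ± 0.38 (SE)). Kinetochore and spindle checkpoint genes had 24 of 36 and 5, with Cenpf at 1.66 ± 0.30 (SE). Among the cyclins, kinases and inhibitors, 19 of 36 were higher and 1 lower at an unadjusted p under 0.05, with 2 lower without saline mouse 1, and Cdk1, Foxm1 and Ccnb1 were called at 0.10. Without mouse 12, 7 of the kinesins, 8 of the kinetochore genes and 7 of the cyclin list passed 0.05, all higher, whereas without any other 1 lung 0 members of the 8 lists passed. Without mouse 11, 14 kinetochore genes had an unadjusted p under 0.05. Cdk1, the kinase that drives mitotic entry, had 3.81, 2.49 and 3.05 CPM against 14.05, 15.3 and 6.52 CPM.

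Promoters of the 3 mitotic genes that rose are shown because genes of this phase are known to share short words, the cell-cycle homology region (CHR) and CCAAT boxes. Both strands were searched for the CHR as TTTGAA or as its other form TTCGAA, and for the word CCAAT. The words used for the factor E2F were TTTGGCG along with TTTCCCG, followed by TTTCGCG and lastly by TTTGCCG. Capitals mark every match in the 250 bases before the start (RefSeq, GRCm38.p6): Ube2c at chr2:164769679-164769928 on the plus strand, Ckap2l at chr2:129297213-129297462 and Hmmr at chr11:40733438-40733687, both on the minus strand.
Ube2c: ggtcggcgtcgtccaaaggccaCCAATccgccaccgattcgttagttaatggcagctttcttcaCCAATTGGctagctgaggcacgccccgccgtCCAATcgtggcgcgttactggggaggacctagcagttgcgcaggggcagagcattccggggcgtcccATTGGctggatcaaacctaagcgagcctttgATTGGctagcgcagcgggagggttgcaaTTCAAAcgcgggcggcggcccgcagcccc
Ckap2l: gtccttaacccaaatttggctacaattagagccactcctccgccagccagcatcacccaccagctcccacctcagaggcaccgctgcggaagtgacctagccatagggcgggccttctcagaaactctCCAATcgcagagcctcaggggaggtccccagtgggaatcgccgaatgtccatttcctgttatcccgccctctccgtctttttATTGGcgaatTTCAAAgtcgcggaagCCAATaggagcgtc
Hmmr: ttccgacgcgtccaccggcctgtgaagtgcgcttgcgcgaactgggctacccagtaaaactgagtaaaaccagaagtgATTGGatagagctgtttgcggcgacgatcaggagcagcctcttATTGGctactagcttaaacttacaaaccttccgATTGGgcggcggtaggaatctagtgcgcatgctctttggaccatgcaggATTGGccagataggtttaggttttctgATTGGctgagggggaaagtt
Ube2c and Ckap2l each held 1 CHR word, starting 29 and 30 bases before the start, with 6 and 3 CCAAT words. Hmmr held 5 CCAAT words and no CHR word, which says only that these letters are not in the window. In the mitotic kinase and cytokinesis list, 13 of the 38 genes with a promoter in the table (34.2%) held both a CHR and a CCAAT word, against 5.76% of the 11305 tested genes with a promoter and 7.0% of all 27025. E2F words occurred in 38.1% of 21 licensing genes and 18.4% of the 38 mitotic genes, against 9.98% of the tested genes. These shares are descriptions and were not tested.

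DNA damage genes were asked about because the study chose a panel of 11 genes for PCR from repair and checkpoint pathways. That panel was chosen on these samples, so its direction here is not independent evidence. All 11 had a log2 fold change above 0, with a median of 2.06, 9 had an unadjusted p under 0.05 and 3 were called at 0.10 (Pclaf, Uhrf1 and Clspn). Without mouse 12, 8 passed 0.05, and with all lungs or without any other 1 lung 0 did. Clspn, which holds the checkpoint kinase at stalled forks, had 3.51, 1.80 and 2.68 CPM against 14.9, 17.1 and 6.31 CPM. Chek1, that kinase, had 1.00, 1.27 and 1.18 CPM in the saline mice and 4.85, 7.03 and 1.98 CPM in the Corexit 9527 mice (log2 fold change 2.00, SE 0.46, edgeR adjusted p = 0.131). Chek2, the kinase of double-strand breaks, overlapped between the groups, with 4.01, 6.67 and 6.92 CPM against 8.34, 8.30 and 6.46 CPM and a log2 fold change of 0.39 ± 0.25 (SE). The S phase checkpoint list had 5 of 16 members higher at an unadjusted p under 0.05, 0 lower and Clspn called at 0.10, and without mouse 12 there were 8 higher, of which 3 passed 0.05 after adjustment, and 1 lower. Homologous recombination and Fanconi genes had 14 of 39 members higher at an unadjusted p under 0.05, 0 lower and 1 called at 0.10 (Eme1, a subunit of a structure-specific nuclease, 2.17 ± 0.40 (SE)), and 2 passed 0.05 without mouse 12. Mismatch and excision repair had 4 of 30 higher and none passed 0.10, whereas without mouse 12 there were 6, of which 1 passed 0.05 after adjustment. Without any lung other than mouse 12, no member of the S phase checkpoint, recombination or excision repair lists passed 0.05. Of 32 tested p53 targets, 5 were higher (8 without mouse 10) and 3 lower (1 without mouse 11) at an unadjusted p under 0.05. Of all genes, 7.96% were higher and 5.78% lower at that threshold. The median of the p53 targets was 0.10, with 0.03 without mouse 11 and 0.19 without saline mouse 2. The 2 called higher at 0.10, Ckap2 and Gtse1, are also microtubule proteins of dividing cells, and the 1 called lower was Igfbp3, a binding protein of insulin-like growth factors. Cdkn1a and Mdm2, the leading p53 targets, had log2 fold changes of -0.02 ± 0.25 (SE) and -0.03 ± 0.09 (SE). Apoptosis genes had a median of 0.01, with 1 of 18 higher (2 without mouse 10) and 1 lower (3 without mouse 12 and 2 without mouse 11), and the median was under 0 without mouse 11 or saline mouse 2. The S phase checkpoint, recombination, excision repair, p53 and apoptosis lists had 135 tested members. Of these, 133 were on none of the 8 lists from replication licensing to histones, with a median of 0.14. At an unadjusted p under 0.05, 28 of the 133 were higher and 4 lower. They include S phase checkpoint and recombination genes, which were counted with cell division above. Their counts therefore do not separate DNA damage from cell division.

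**Figure D2:**
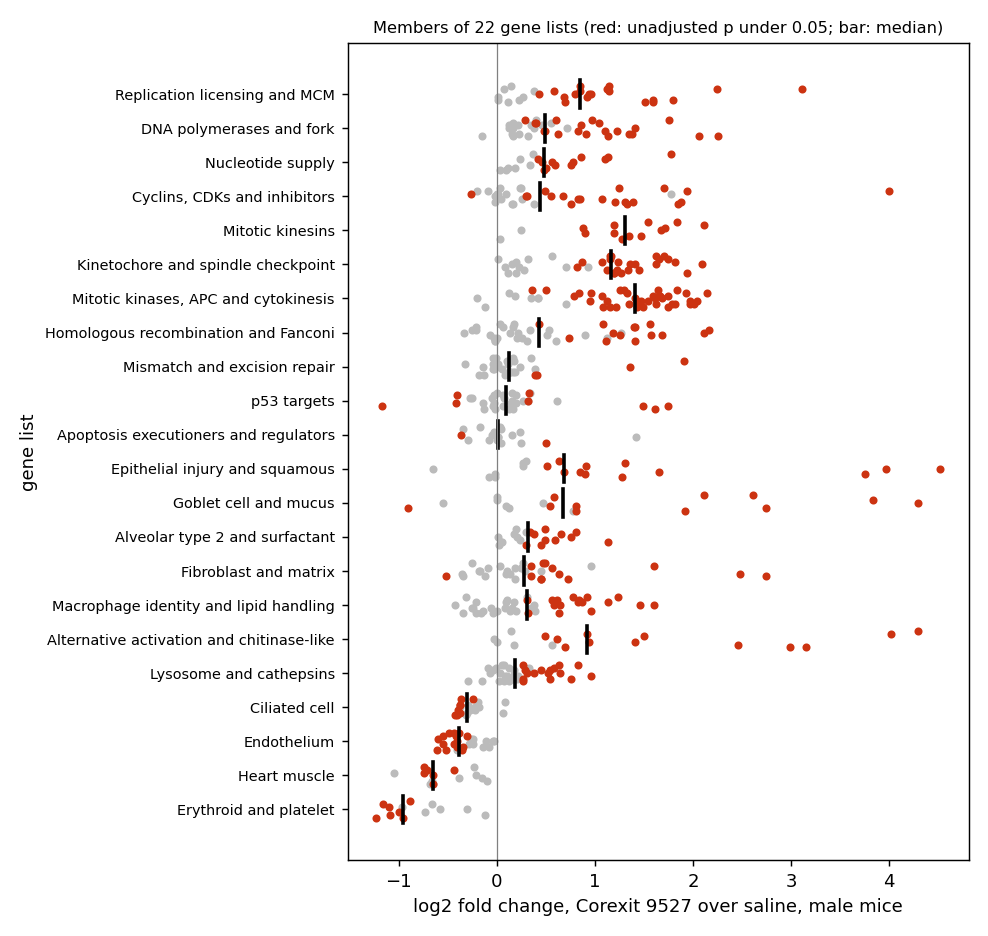
Each point is a tested member of 1 of 22 gene lists at its log2 fold change of Corexit 9527 over saline in male mice, red where the unadjusted p is under 0.05, and each bar is the median of its list. The mitotic lists sit furthest right, with medians of 1.16 to 1.41, while the endothelial, heart muscle and blood lists lie left of 0.

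Spp1, Clec4n and Cd68 were the macrophage genes that rose. Spp1, the secreted phosphoprotein osteopontin, rose 3.04-fold, with 19.8, 23.8 and 23.4 CPM in the saline mice and 55.8, 81.7 and 66.5 CPM in the Corexit 9527 mice (log2 fold change 1.61, SE 0.16, edgeR adjusted p = 0.0147). Clec4n, the mannan receptor dectin-2 of macrophages and dendritic cells, rose 2.27-fold with 12.7, 12.6 and 13.4 CPM against 30.97, 28.8 and 28.3 CPM (log2 fold change 1.18, SE 0.11, edgeR adjusted p = 0.0147). Cd68, the lysosomal glycoprotein that marks macrophages, rose 1.78-fold with 92.99, 81.3 and 82.9 CPM against 134, 156 and 168 CPM (log2 fold change 0.83, SE 0.11, edgeR adjusted p = 0.0468). In all 3 genes the treated lungs stood clear of the saline lungs. Of 40 tested members of the macrophage list, 17 were higher and 0 lower at an unadjusted p under 0.05 and 6 were called at 0.10, while 12 of the 40 had a log2 fold change under 0. At that unadjusted threshold 3 were lower without mouse 12 and 2 without saline mouse 1. Of the list, 2 passed 0.05, against 4 without mouse 12, 1 without mouse 10 or mouse 11 and 0 without any 1 saline mouse. Their summed level was 4167, 4087 and 4505 CPM in the saline mice and 4565, 5368 and 5352 CPM in the Corexit 9527 mice. On the list of matrix metalloproteinases, Mmp12, the macrophage elastase, had 6.52, 7.41 and 8.01 CPM against 25.5, 61.7 and 26.8 CPM and was called at 0.10 (2.38 ± 0.34 (SE)). Ctsk, a collagen-degrading cathepsin, and Atp6v0d2, a subunit of the proton pump, were also called at 0.10, with log2 fold changes of 0.96 ± 0.16 (SE) and 0.65 ± 0.12 (SE). Lysosomal genes had 16 of 39 members higher and 0 lower at an unadjusted p under 0.05 and 8 called at 0.10, and 5 passed 0.05 without mouse 12, 1 with all lungs and 0 without any other 1 lung.

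Retnla and Ccl17, which interleukin-4 and interleukin-13 are known to induce, differed widely between the treated lungs. Retnla, a resistin-like secreted protein, had 29.7, 23.8 and 32.8 CPM in the saline mice and 169.6, 936 and 291 CPM in the Corexit 9527 mice and was called at 0.10 (log2 fold change 4.02, SE 0.59, edgeR adjusted p = 0.0558). Ccl17, a chemokine for T helper cells, had 1.61, 2.59 and 3.05 CPM against 2.83, 27.7 and 9.54 CPM, so that mouse 10 lay within the saline range. Mouse 11 was the highest for both genes. Of 17 tested members of the alternative activation list, 12 were higher and 0 lower at an unadjusted p under 0.05 and 3 were called at 0.10. CC chemokines and their receptors had 12 of 25 higher, 1 lower and 0 called at 0.10, and the 12 became 6 without mouse 11 and 7 without saline mouse 1, while 2 were lower without mouse 12. Markers of T and NK cells had 0 of 25 members at an unadjusted p under 0.05, and their summed level was 253, 172 and 236 CPM in the saline mice and 219.8, 246 and 173 CPM in the Corexit 9527 mice. Neutrophil markers had 2 of 16 higher and 3 lower (5 without mouse 10 and 1 without saline mouse 1), with Lcn2, which epithelium also makes, the one that rose.

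Among matrix genes, Fn1, the matrix glycoprotein fibronectin, rose 1.66-fold with 921, 935 and 947 CPM in the saline mice and 1423, 1637 and 1584 CPM in the Corexit 9527 mice (log2 fold change 0.73, SE 0.10, edgeR adjusted p = 0.0468). The saline lungs lay close together and the treated lungs all lay above them. Col3a1, a fibrillar collagen chain, and Fbn1, fibrillin of elastic fibers, were called at 0.10, with log2 fold changes of 0.63 ± 0.09 (SE) and 0.48 ± 0.09 (SE). Timp1, an inhibitor of matrix metalloproteinases, had 8.48, 9.84 and 7.64 CPM against 30.7, 115 and 27.3 CPM (log2 fold change 2.74, SE 0.53, edgeR adjusted p = 0.0854), with mouse 11 far above mice 10 and 12. Of 32 tested fibroblast and matrix genes, 12 were higher and 1 lower at an unadjusted p under 0.05, 6 were called at 0.10, and 2 rose (Spp1, also a macrophage gene, and Fn1), against 5 past 0.05 without mouse 12, 3 without mouse 11, 1 without mouse 10 and 0 without any 1 saline mouse. The 1 lower member became 5 without mouse 12. The median of the list was 0.28 and 0.17 without mouse 12. The remaining genes that rose were Ngfrap1 (now Bex3), an adaptor of the p75 neurotrophin receptor, with 35.9, 38.2 and 37.5 CPM against 60.9, 67.5 and 69.8 CPM (log2 fold change 0.83, SE 0.10, edgeR adjusted p = 0.033), and Snx7, a sorting nexin of endosomes, with 18.1, 17.3 and 17.02 CPM against 36.4, 32.2 and 30.96 CPM (log2 fold change 0.93, SE 0.11, edgeR adjusted p = 0.0374).

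All 20 tested members of the alveolar type 2 list had a log2 fold change above 0, 11 had an unadjusted p under 0.05, 4 were called at 0.10 and 1 of these, Muc1, rose. Without mouse 12, 4 passed 0.05 as higher and Lyz1, a lysozyme, as lower, with a log2 fold change of -0.63 against 0.17 with all lungs, and the 11 became 7, as they did without saline mouse 3. Without any other 1 lung no member passed 0.05. Ctsh, a cathepsin that processes surfactant protein, had 281, 314 and 327 CPM against 512, 565 and 480.1 CPM (0.76 ± 0.11 (SE)). Lamp3, of lamellar bodies, had a log2 fold change of 0.59 ± 0.10 (SE), and Cxcl15, the lung chemokine lungkine, 0.65 ± 0.11 (SE). The defining gene of the cell, Sftpc, had 13239, 12699.8 and 12958 CPM against 12935, 10994 and 15249 CPM and a log2 fold change of 0.01 ± 0.14 (SE). Among alveolar type 1 genes, Hopx, a homeodomain protein, was called lower at 0.10 with 361, 357 and 377 CPM against 269.7, 236 and 232 CPM, and the list had 2 higher and 5 lower members of 18 at an unadjusted p under 0.05, with 2 lower without mouse 11 or saline mouse 3 and 3 without saline mouse 2. Ciliated cell genes had 8 of 19 lower (4 without mouse 11 or saline mouse 3) and 0 higher, with none called at 0.10 and Dnah9, an axonemal dynein, at -0.41 ± 0.10 (SE). Of 10 tested club cell genes, 2 were lower at an unadjusted p under 0.05 (Scgb3a1 and Scgb1a1, secretoglobins), and the 1 higher was Retnla, which macrophages also make. Without mouse 12, 6 of the 10 were lower and 1 of these passed 0.05 after adjustment, and without mouse 10 or saline mouse 3 1 was lower.

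Only Colq fell. It encodes the collagen-like tail that anchors acetylcholinesterase and lies on chromosome 14, 31523082 to 31591343. Colq stood at 43.6, 41.7 and 40.7 CPM in the saline mice and between 18.8 CPM (mouse 10) and 20.6 CPM (mouse 12) in the Corexit 9527 mice (log2 fold change -1.08, SE 0.10, edgeR adjusted p = 0.0147). Within each group its values lay close together, and all saline lungs were above all treated lungs. Leaving out any 1 lung kept its log2 fold change between -1.10 and -1.05, but without mouse 10 or any 1 saline mouse it did not pass 0.05, with an edgeR adjusted p of up to 0.138. Other lower genes were called at 0.10. Cyp4b1, a cytochrome P450 of lung epithelium, had 590.5, 616 and 527 CPM against 345, 293 and 371 CPM (-0.78 ± 0.12 (SE)), Igfbp3 had 123, 116 and 186 CPM against 59.5, 56.5 and 72.5 CPM (-1.17 ± 0.19 (SE)), and Faim2, an inhibitor of Fas-mediated death, had 28.7, 31.8 and 27.6 CPM against 16.2, 13.6 and 18.7 CPM (-0.86 ± 0.14 (SE)). The nuclear envelope protein Syne1 had a log2 fold change of -0.59 ± 0.09 (SE), the neural differentiation protein Mturn -0.73 ± 0.11 (SE), the endothelial phosphatase subunit Ppp1r16b -0.56 ± 0.09 (SE) and Upk3b of mesothelium -0.66 ± 0.11 (SE). Mesothelium genes went both ways, with 3 of 10 higher and 5 lower (7 without mouse 12 and 3 without mouse 11) at an unadjusted p under 0.05. Their summed level was 516, 487 and 470 CPM in the saline mice and 580, 628 and 485 CPM in the Corexit 9527 mice.

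All 25 endothelial markers had a log2 fold change under 0, with a median of -0.38, 15 at an unadjusted p under 0.05 (9 without saline mouse 2 or saline mouse 3) against 5.78% of all genes, and Egfl7, a secreted endothelial factor, called at 0.10 (405, 469.9 and 376 CPM against 281, 276 and 260.5 CPM). Summed, they gave 10039.9, 11979 and 11217 CPM in the saline mice and 8618, 8438 and 9203 CPM in the Corexit 9527 mice. Red cell and platelet genes were lower in 13 of 13 members, 7 of them at an unadjusted p under 0.05 and 0 at an adjusted p under 0.10, and their summed level was 8987, 12696 and 7643 CPM in the saline mice and 2777, 4118 and 6869.8 CPM in the Corexit 9527 mice. The ranges of the groups do not overlap, but mouse 12 stood near saline mouse 3. The median log2 fold change of the list was -0.95, and without mouse 12 it was -1.41, with 6 of the 13 past 0.05 as lower. Without saline mouse 2 the median was -0.71, with 4 of the 13 at an unadjusted p under 0.05. Heart muscle genes, which come from heart tissue or from the muscle sleeve of the pulmonary veins, were lower in 15 of 15, with 6 at an unadjusted p under 0.05 (10 without mouse 12 and 3 without saline mouse 2) and Myl7, the atrial light chain, called at 0.10. Their sums of 516, 684 and 456 CPM in the saline mice and 436, 296 and 492 CPM in the Corexit 9527 mice overlap between the groups. The parts that blood and vascular content and heart tissue have in the gene lists above were not tested.

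**Figure D3:**
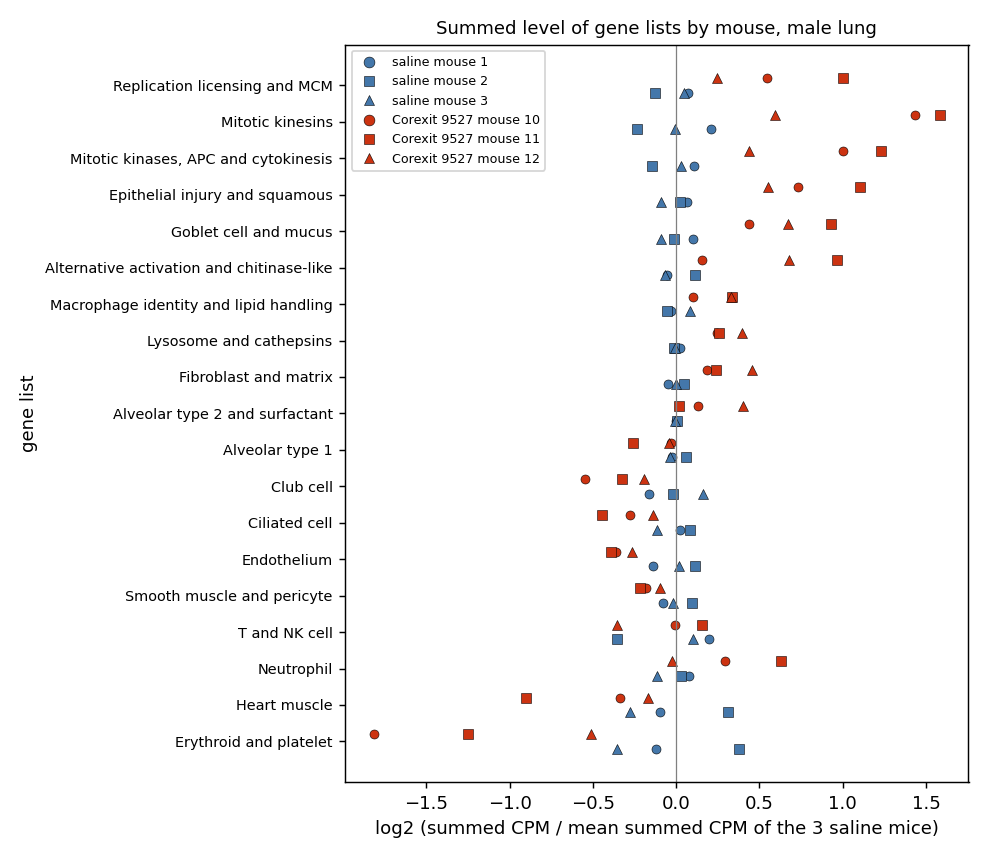
Each point is the summed CPM of 1 gene list in 1 lung, as the log2 ratio to the mean of the 3 saline lungs (blue, saline; red, Corexit 9527). Mouse 12 is the lowest treated lung in mitotic kinase and cytokinesis genes, at 585 CPM against 863 and 1013 CPM, and the highest in alveolar type 2, lysosome and matrix genes.

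Corexit 9527 was next set against Corexit 9500, the other dispersant, given at the same dilution and times, to ask whether the 2 dispersants differ. No gene passed an adjusted p of 0.05 by edgeR among 15071 tested, where 375 higher (2.49%) and 298 lower (1.98%) had an unadjusted p under 0.05 and DESeq2 called 5 and 3. The counts at the unadjusted threshold were 930 and 1047 without Corexit 9527 mouse 12, 192 and 237 without Corexit 9527 mouse 11, and 178 and 189 without Corexit 9500 mouse 9, with no gene past 0.05 after adjustment in any of these. Sprr1a was at 20.3, 11.6 and 3.33 CPM in the Corexit 9500 mice and 32.8, 45.8 and 17.2 CPM in the Corexit 9527 mice on a scale common to the 18 male lungs. Its log2 difference was 1.45 (95% interval 0.16 to 2.73, edgeR adjusted p = 0.883). For Clca3 the difference was 0.86 (95% interval -0.53 to 2.26), for Muc5ac 0.47 (95% interval -0.81 to 1.76) and for Ube2c 0.54 (95% interval 0.05 to 1.03), none with an adjusted p under 0.05. Colq was at 30.7, 41.6 and 41.2 CPM after Corexit 9500 against 18.7, 19.8 and 20.5 CPM, a difference of -0.94 (95% interval -1.25 to -0.63, edgeR adjusted p = 0.883). Of the 5 genes with the smallest p, Dcstamp, a membrane protein needed for macrophage fusion, was at 0, 0.0752 and 0 CPM after Corexit 9500 and at 1.00, 0.728 and 0.569 CPM after Corexit 9527, and was listed at 0 in all 9 lungs that received oil. In the fit against saline, the saline lungs had 0.301, 0.212 and 0 CPM of Dcstamp (edgeR adjusted p = 0.278), and all of its levels were low. Kcnk3, a potassium channel, was at 47.5, 52.5 and 50.04 CPM and 30.9, 31.2 and 37.6 CPM, a difference of -0.59 (95% interval -0.83 to -0.34). A p that misses the threshold does not show that the 2 dispersants act alike, and each interval gives the differences that these lungs allow.

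Corexit 9527 alone was also set against Corexit 9527 with oil. The 9527+oil mice received the same ratio of dispersant to salt solution, with oil. Of 14882 genes, 1 was higher in Corexit 9527 alone and 1 lower at an edgeR adjusted p under 0.05 (0.00672% each), 3 (0.0202%) were higher and 1 lower at 0.10, and 959 higher (6.44%) and 763 lower (5.13%) had an unadjusted p under 0.05. DESeq2 called 184 and 89. Sprr1a was at 2.04, 1.27 and 0.469 CPM in the 9527+oil mice, a log2 difference of 4.68 (95% interval 3.47 to 5.90, edgeR adjusted p = 0.0671). Mal was at 33.4, 32.3 and 27.8 CPM, a difference of 0.98 (95% interval 0.73 to 1.23, edgeR adjusted p = 0.0671). Both had an adjusted p under 0.10 and over 0.05. The 2 genes past 0.05 are predicted genes with no role given here. Gm13835 was at 17.98, 6.80 and 5.69 CPM in the Corexit 9527 and 0, 0.055 and 0 CPM in the 9527+oil mice, and Gm14288 at 0, 0.0971 and 0 CPM and 12.7, 9.90 and 9.31 CPM. Without Corexit 9527 mouse 12 the counts of higher and lower genes were 22 and 9, and without mouse 10 they were 0 and 0. Without 9527+oil mouse 16 they were 0 and 2, without 9527+oil mouse 17 they were 0 and 0, and without Corexit 9527 mouse 11 no gene was higher. At the unadjusted threshold there were 1265 and 1239 without Corexit 9527 mouse 12, 688 and 434 without mouse 10, 515 and 447 without mouse 11, and 586 and 369 without 9527+oil mouse 18. Among the mitotic genes, Hmmr differed by 1.51 (95% interval 0.88 to 2.15) and Ube2c by 1.08 (95% interval 0.55 to 1.61), and among the mucus genes Clca3 differed by 2.16 (95% interval -0.25 to 4.57). In the other direction, 10 of 16 neutrophil genes were lower in Corexit 9527 alone at an unadjusted p under 0.05, 0 were higher and 0 passed 0.05 after adjustment, with a median difference of -1.68. Their summed level was 564 to 1968 CPM in the 9527+oil mice and 635 to 995 CPM in the Corexit 9527 mice, so 1 9527+oil lung lay below all 3 Corexit 9527 lungs.

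**Figure D4:**
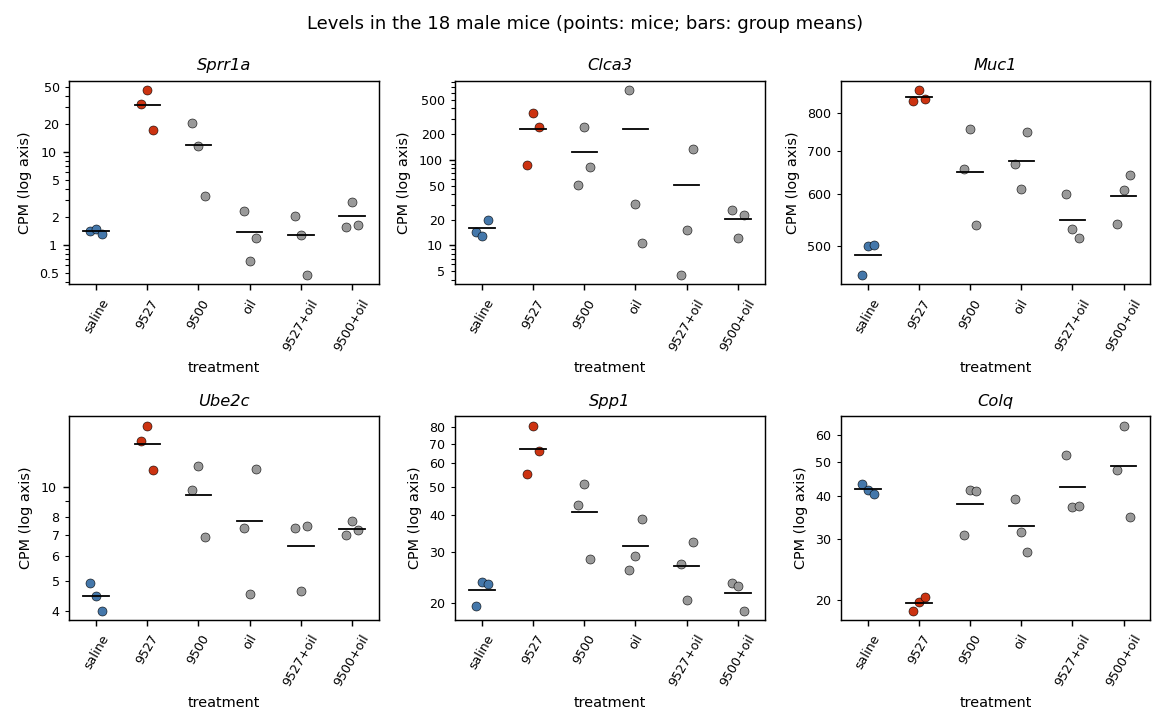
CPM of 6 genes in the 18 male lungs by treatment, on log axes, with 1 point a lung and bars for group means. Sprr1a is at 3.33 to 45.8 CPM in the lungs given either Corexit alone and at 0.469 to 2.89 CPM in all lungs that received oil, while Clca3 is also at 648 CPM in 1 oil lung.

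Female mice gave the same comparison from a separate count table, so sex and anything else that differs between the tables cannot be told apart. No gene passed an adjusted p of 0.05 or 0.10 by edgeR for a difference between the sexes in the Corexit 9527 effect, among 15328 genes, with 24 (0.157%) and 30 (0.196%) at an unadjusted p under 0.05, and DESeq2 called 5 and 4. In the female table, saline mouse 3 and Corexit 9527 mouse 11 had 45.09% and 38.38% of their counts in mitochondrial genes, and without them 0 genes passed and 232 and 204 had an unadjusted p under 0.05. Those 2 counts were 13 and 23 without male saline mouse 3, 54 and 36, 65 and 96, and 68 and 111 without female saline mice 1, 2 and 3, and 85 and 99 and 49 and 28 without female Corexit 9527 mice 10 and 11. For Sprr1a the log2 fold changes were 4.51 ± 0.48 in male and 3.07 ± 0.45 in female mice, for Hmmr 2.01 ± 0.40 in male and 1.78 ± 0.39 in female mice, and for Fn1 0.73 ± 0.24 in male and 0.70 ± 0.24 in female mice. For Clca3 they were 3.84 ± 0.82 in male and 0.52 ± 0.73 in female mice, a difference of 3.32 (95% interval 0.96 to 5.68, edgeR adjusted p = 1.00). The female saline lungs already had 61.8 to 621 CPM of Clca3 on the scale of the joint fit, where the male saline lungs had 11.3 to 17.4 CPM. Lcn2 had 1.31 ± 0.33 in male and 0.18 ± 0.32 in female mice, and Colq -1.08 ± 0.52 in male and -1.05 ± 0.52 in female mice.

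**Figure D5:**
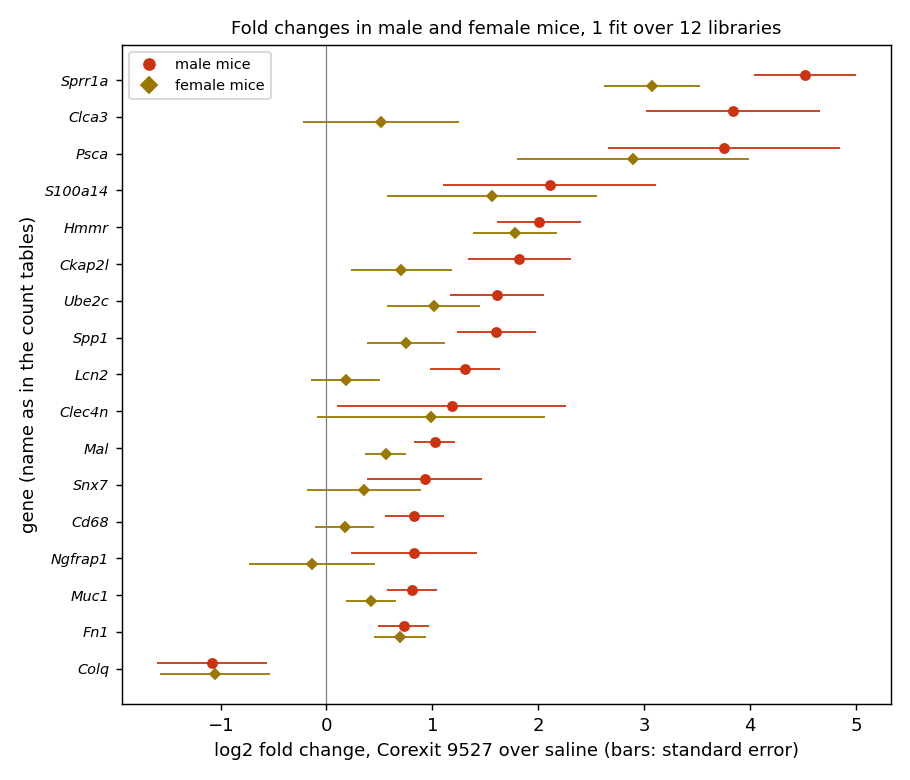
Log2 fold changes of Corexit 9527 over saline with standard errors for the genes called in male mice (circles, male; diamonds, female), from 1 fit over 12 libraries. The female value is above 0 for 15 of the 16 genes that rose in male mice and below 0 for Ngfrap1.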

How the data were processed

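RNA-seq of the left lung of 6 male mice was analysed, with male groups 9500 and 9527+oil and the female 9527 and saline mice as further comparisons. The authors deposited expected counts, which per the study's methods came from Salmon on GRCm38 transcripts, combined by tximport. The deposited tables are 1 for each sex, with gene symbols as row names. All values were whole numbers, and no row of the male table summed to under 10. The Salmon version is not given in the sources used here. Estimated counts of near-identical gene copies are uncertain. The male table had 18295 rows, of which 4 that shared a name (0.0128% of counts) were dropped, and 0 columns belonged to no sample. Gene positions came from GENCODE M21 (98.57% of 18691 names matched), and promoters of 11 of the 17 called genes from RefSeq.

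Genes were tested in edgeR 4.0.16 (R 4.3.3) with TMM, filterByExpr and the quasi-likelihood F-test, with Benjamini-Hochberg adjustment over all genes tested. CPM uses effective library sizes. Alternatives were DESeq2 1.42.0, limma 3.58.1 (voom with quality weights), other scalings and filters, all 6 male groups in 1 fit, and leaving out each library. The script was tested on simulated data. The lowest chi-square per gene between 2 of the 6 libraries was 19.6 over 15 pairs, above sampling noise. Samples were separate mice, and p values measure their spread.

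Named genes were those past 0.05, the 10 lower genes with the smallest p, no overlap and a mean log2 CPM of at least 1, up to 4 members of each list, the panel genes, the 5 smallest p of the other comparisons and tissue markers. The members and lists were chosen with earlier results of these data known. Not all genes that this rule names are reported here.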

Additional observations from a re-analysis of the deposited data

Results flagged for a closer look

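Hist2h2aa1, C7 and Zfp131 were singled out because all 3 Corexit 9527 lungs lay below all 3 saline lungs in male mice and above them in female mice. Hist2h2aa1, a replication-dependent histone with near-identical copies, had a male minus female difference of -7.55 in log2 fold change, from -0.84 ± 0.77 in male and 6.71 ± 1.12 in female mice. Its female saline lungs were at or near 0, so this size depends on the prior count. Zfp131, a zinc finger protein, had -2.62, from -0.72 ± 0.52 in male and 1.90 ± 0.53 in female mice. C7, the complement component, had -0.59, from -0.32 ± 0.18 in male and 0.27 ± 0.18 in female mice. The edgeR adjusted p of the difference was 1 for all 3 genes. With 217 genes examined, such patterns were not tested further.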

How the results depend on the processing

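No paired analysis was possible because the saline mice carry the numbers 1 to 3 and the Corexit 9527 mice the numbers 10 to 12. At an adjusted p under 0.05 in male mice, counts of higher and lower genes against 16 and 1 were 411 and 161 by DESeq2, 61 and 9 with no filter on low counts, 78 and 11 with at least 10 counts in every library, 217 and 67 with all 6 male groups in 1 fit, 91 and 20 by limma voom, and 49 and 7 with bias-adjusted deviances, a setting chosen after seeing the data. Upper-quartile scaling gave 21 and 2, and DESeq2's size factors 16 and 1. Leaving out 1 library gave 0 to 173 higher and 0 to 38 lower genes. At an adjusted p under 0.10, counts against 119 and 20 were 564 and 280 by DESeq2, 184 and 46 with at least 10 counts in every library, 450 and 239 with all 6 groups and 230 and 89 by limma voom, and leaving out 1 library gave 0 to 326 and 0 to 103. All 17 called genes passed under DESeq2, voom and the scalings, and 14 with all 6 groups. With 1 library left out, 17 passed without mouse 12, 4 without mouse 10, 5 without mouse 11 and 0 without any 1 saline mouse. For the sex difference, DESeq2 gave 5 higher and 4 lower genes, and leaving out 1 library 0 higher and 0 to 1 lower. Against Corexit 9500, DESeq2 gave 5 and 3. Against 9527+oil, DESeq2 gave 184 and 89, no filter 2 higher, bias-adjusted deviances 0 higher, and leaving out 1 library 0 to 22 higher and 0 to 9 lower. Of the 1081 tested list members, 275 had another sign with 1 library left out, 0 of which had an unadjusted p under 0.05 on all 6 libraries. Those named in the text were Lyz1, Cyp1a1, Cdkn1a, Mdm2, Ager and Sftpc. The sign also turned for Rpl10a-ps1, which was -0.04 on all 6 libraries, 0.0298 by voom and -0.14 to 0.15 with 1 library left out, and for Gm13835, which was 0.14 on all 6 and -0.56 to 0.43 with 1 left out. The cause was not tested. Genes at low counts, such as Psca, are limited by depth.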

Other observations

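Lists of chemical and other responses were counted in the same way, where 7.96% of all genes were higher and 5.78% lower at an unadjusted p under 0.05. Of 27 genes of the Nrf2 oxidative stress response, 8 were higher (4 without saline mouse 2) and 0 lower (2 without Corexit 9527 mouse 12) at an unadjusted p under 0.05, with Akr1b8, an aldo-keto reductase, at 1.02 ± 0.27 (SE) and Hmox1, heme oxygenase, at 0.56 ± 0.15 (SE), and none was called at 0.10. Of 35 genes of xenobiotic metabolism, 3 were higher and 7 lower, with Adh1, an alcohol dehydrogenase, called higher at 0.10 (123, 125 and 130.3 CPM against 184, 187 and 166 CPM) and Cyp4b1 called lower. Without Corexit 9527 mouse 12, 18 were lower and 7 of the 35 passed an adjusted p of 0.05 as lower, among them Cyp1a1, a cytochrome P450 that aryl hydrocarbons induce, with a log2 fold change of -1.22 against 1.90 with all 6 lungs. The 7 lower at an unadjusted p became 2 without mouse 11 or saline mouse 3 and 3 without mouse 10 or saline mouse 2. Cholesterol synthesis genes had 6 of 23 higher and 0 lower at that unadjusted threshold (3 higher without mouse 10 or mouse 11), and circadian clock genes had 0 of 20 in either direction, but 4 lower without saline mouse 1 and 4 higher and 1 lower without saline mouse 3. Cyclic nucleotide signaling genes had 16 of 40 lower (9 without saline mouse 3 and 10 without saline mouse 2) and 1 higher (2 without mouse 12), with Npr2, the receptor of C-type natriuretic peptide, at -0.44 ± 0.10 (SE). Immediate early genes had 9 of 25 lower (4 without mouse 10 and 5 without saline mouse 1) and 1 higher (3 without mouse 10, 2 without mouse 12 or saline mouse 2 and 0 without saline mouse 1), with Klf4, the lower member with the smallest p, at -0.50 ± 0.13 (SE) and Fos at -1.05 ± 0.30 (SE).

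Ncapd3, a subunit of condensin II, was called lower at 0.10, with 7.67, 9.79 and 9.05 CPM in the saline mice and 2.37, 2.06 and 3.81 CPM in the Corexit 9527 mice and a log2 fold change of -1.69 ± 0.27 (SE). Of the other 7 condensin genes, chosen after their values were seen, none passed 0.10. Ncapd2 had 1.08 ± 0.26 (SE), Ncapg 1.97 ± 0.42 (SE), Smc2 0.96 ± 0.25 (SE) and Ncapg2, of condensin II, 1.47 ± 0.38 (SE), while Smc4 had 0.36 ± 0.14 (SE), Ncaph 0.35 ± 0.22 (SE) and Ncaph2, of condensin II, 0.12 ± 0.11 (SE), and the groups overlapped for these last 3. Gm14288 was at 11.3, 3.21 and 1.44 CPM in the saline and 0, 0.0971 and 0 CPM in the Corexit 9527 lungs, but also at 0.2, 13.5 and 2.04 CPM in the Corexit 9500, 0, 0 and 2.61 CPM in the oil and 0, 12.1 and 0 CPM in the 9500+oil lungs, so that it varied from 0 to over 10 CPM between lungs of 1 treatment. Gm20938, also chosen after its values were seen, was at 1.35, 1.32 and 2.18 CPM in the saline lungs and listed at 0 in all 3 Corexit 9527 lungs.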
